A study of Homo sapiens with 6 samples.

Results

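Open chromatin was examined at 10 genes of the heat shock chaperone system in MCF10A cells, a non-tumorigenic human mammary epithelial line. The genes were HSPA1A, HSPA1B, HSPA8, HSPH1, DNAJB1, HSP90AA1, HSP90AB1, HSPB1, HSPD1 and HSPE1, taken from the 20033 protein-coding genes of GENCODE release 44 on chromosomes 1 to 22, X and Y. Each gene was studied over its body and 5 kb on either side. ATAC-seq, in which a transposase inserts sequencing adapters into accessible DNA, had been run on 2 libraries per condition. Control cells stayed in buffered salt solution without treatment, TPA cells received 50 μM tris(2-pyridylmethyl)amine, a zinc chelator, and ZnCl2 cells received 30 μM ZnCl2, each for 30 min. All cells were wild type and were kept in a phosphate-free salt solution for 30 min beforehand. The comparison asks whether lowering or raising labile zinc changed accessibility within that time. Growth medium before that held serum, EGF, hydrocortisone, cholera toxin and insulin.

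Heat shock proteins bind unfolded or partly folded proteins and help them to reach or keep their folded state. HSP70 chaperones (HSPA1A, HSPA1B and HSPA8) work in ATP-driven cycles with a J-domain partner that delivers clients (DNAJB1) and an exchange factor that releases nucleotide (HSPH1). HSP90 proteins (HSP90AA1 and HSP90AB1) act later on kinases and receptors, HSPB1 is an ATP-independent small holdase, and HSPD1 with its lid HSPE1 forms the chaperonin of mitochondria. Under heat or other proteotoxic stress, including metal stress, the factor HSF1 binds heat shock elements in promoters and raises transcription of the inducible members. HSPA8 and HSP90AB1 are the constitutive members of their families. Many of these promoters hold open chromatin and paused polymerase before any stress.

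The promoter letters are shown for 5 start sites, because they give the heat shock elements around which the open regions lie and show how alike HSPA1A and HSPA1B are. Each stretch is the 250 bases before the start site of the Ensembl canonical transcript, 5′ to 3′ on the strand of the gene, from hg38. Capitals mark GAANNTTC or TTCNNGAA, which are neighbouring units of a heat shock element in opposite orientation. Overlapping matches run together.
HSPA1A (chr6:31815293-31815542, plus strand): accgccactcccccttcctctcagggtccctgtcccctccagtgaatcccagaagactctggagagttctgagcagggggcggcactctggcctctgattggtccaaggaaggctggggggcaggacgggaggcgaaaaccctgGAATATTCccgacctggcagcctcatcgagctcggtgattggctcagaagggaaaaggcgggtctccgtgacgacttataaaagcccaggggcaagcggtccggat
HSPA1B (chr6:31827488-31827737, plus strand): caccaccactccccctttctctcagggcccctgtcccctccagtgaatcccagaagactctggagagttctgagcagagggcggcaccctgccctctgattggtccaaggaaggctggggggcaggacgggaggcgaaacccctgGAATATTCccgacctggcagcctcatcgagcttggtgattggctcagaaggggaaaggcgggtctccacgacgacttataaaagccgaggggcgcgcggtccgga
DNAJB1 (chr19:14518398-14518647, minus strand): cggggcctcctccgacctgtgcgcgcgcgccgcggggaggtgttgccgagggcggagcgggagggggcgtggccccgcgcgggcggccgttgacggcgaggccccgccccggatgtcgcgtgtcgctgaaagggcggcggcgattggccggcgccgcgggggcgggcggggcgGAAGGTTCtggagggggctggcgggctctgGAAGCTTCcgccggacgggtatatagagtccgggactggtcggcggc
HSP90AA1 (chr14:102087045-102087294, minus strand): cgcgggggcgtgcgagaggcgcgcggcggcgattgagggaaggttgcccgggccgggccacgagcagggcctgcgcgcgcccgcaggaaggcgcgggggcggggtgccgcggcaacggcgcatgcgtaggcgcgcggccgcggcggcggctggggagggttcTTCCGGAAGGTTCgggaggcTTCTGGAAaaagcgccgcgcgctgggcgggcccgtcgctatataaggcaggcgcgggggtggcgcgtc
HSPD1 (chr2:197499841-197500090, minus strand): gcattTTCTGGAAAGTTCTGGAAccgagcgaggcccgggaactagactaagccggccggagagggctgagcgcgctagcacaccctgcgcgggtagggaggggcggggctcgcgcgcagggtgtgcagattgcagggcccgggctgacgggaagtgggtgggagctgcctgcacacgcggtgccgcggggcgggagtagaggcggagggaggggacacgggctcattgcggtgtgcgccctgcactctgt

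At least 1 such match lay between 250 bases before and 50 bases after the start site in 8 of the 10 genes, against 11.0% of the same window at all 20033 coding genes. HSP90AB1 and HSPE1 were the members without a match in that window. At HSPE1, runs of alternating units lay just beyond it, at -311 to -294 from the start. These are the same bases as the run of HSPD1. A run of 3 alternating units was found at HSPA8, HSPH1, HSP90AA1 and HSPD1, which is 4 of 10 members against 0.364% of all windows. TATAAA was present at HSPA1A and HSPA1B alone among the members, 30 and 29 bases before their starts, and in 9.71% of all windows. CCAAT was found in 5 members and 36.1% of all windows. TGCACNC or TGCGCNC, the core of the metal response element bound by the zinc sensor MTF1, was also found in 5 members, against 36.4% of all windows. Matches on either strand were counted throughout. The GC content of the members' windows had a median of 63.3%, close to the 63.7% of all coding genes. These matches are letters only, and binding was not measured.

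HSP90AB1 and HSPB1 carried their 3-unit matches inside intron 1. These lay under the open region of the start site in 6 libraries for HSP90AB1 and in 5 for HSPB1, which had no region in ZnCl2 replicate 2. Beyond the promoter window, such runs were sought only within the start site regions merged over libraries. Lying under an open region was thus largely set by the search, and no background share was taken for it. In HSP90AB1 the units lay 677 to 742 bases downstream of the start, and in HSPB1 947 to 964 bases downstream. The 200 bases around them are printed because HSP90AB1 is the member whose start site differed most between conditions, with the 3-unit runs in capitals.
HSP90AB1 intron 1 (chr6:44247711-44247910, plus strand): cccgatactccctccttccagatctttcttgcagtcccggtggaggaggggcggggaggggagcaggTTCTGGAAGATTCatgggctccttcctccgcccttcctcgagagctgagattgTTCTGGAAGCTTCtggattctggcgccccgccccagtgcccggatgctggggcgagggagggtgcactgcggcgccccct
HSPB1 intron 1 (chr7:76303529-76303728, plus strand): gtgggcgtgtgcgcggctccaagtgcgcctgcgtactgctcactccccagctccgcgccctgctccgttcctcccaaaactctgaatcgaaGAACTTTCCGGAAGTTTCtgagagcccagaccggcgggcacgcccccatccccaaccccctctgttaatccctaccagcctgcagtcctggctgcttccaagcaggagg

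Each library had its own list of open regions called by HMMRATAC, with a whole-number score whose kind is not given in the sources used here. The 6 lists differed in length, with 25031 and 44641 regions for control, 35902 and 41376 for TPA, and 38069 and 18887 for ZnCl2 (replicates 1 and 2 in each case). Every score in a list was turned into a percentile, the share of regions of the same list with a lower score. This needs no common scale of scores, but a percentile still depends on the length of its list. The HSPA1A region stood at place 7777 from the top in ZnCl2 replicate 2, at percentile 57.0. In TPA replicate 2 it stood at place 10833, at percentile 72.9. Sequencing depth per library is unknown from these files. LAMB3 and ITGB4, which encode parts of the laminin-integrin anchorage of basal epithelium, had an open start site in all 6 libraries. None of 8 markers of blood, liver, muscle, endothelial and neural cells had one in any library. KRT5, KRT17 and EGFR were open in 5 libraries, KRT14 and EPCAM in 4, CDH1 in 3 and the canonical start of TP63 in none. The shortest list, ZnCl2 replicate 2, lacked all of these except LAMB3 and ITGB4.

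A region covered the start site of 9 of the 10 chaperone genes in all 6 libraries. The exception was HSPB1, covered in 5 libraries and without any region in its window in ZnCl2 replicate 2. Among all coding genes 43.0% were covered in all 6 libraries, and the share per library ran from 46.3% in ZnCl2 replicate 2 to 60.8% in control replicate 2. The members' regions also stood high in their lists. The median percentile over the 10 members was 84.3 and 92.8 in the control libraries, 90.1 and 94.2 after TPA, and 91.0 and 85.7 after ZnCl2. Over all coding genes with a call anywhere, the medians were 58.9 and 79.0, 64.7 and 70.1, and 75.1 and 48.9. The start site was thus open in untreated cells at every member, and the comparisons of treatment concern how high its region ranked.

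Over the 10 windows together there were 18 and 23 distinct open regions in control, 23 and 21 in TPA, and 26 and 13 in ZnCl2 libraries. They took up 33.5 and 75 kb, 55.5 and 59.7 kb, and 77.0 and 52.0 kb. The ranges of control and treated libraries overlapped in kb, and the fewest regions came from the shortest list. The start site regions had a median width of 2450 and 4025 bp in control, 3245 and 2420 bp in TPA, and 3315 and 3350 bp in ZnCl2 libraries, against 1690 and 2760, 1830 and 1880, and 2150 and 2600 bp over all coding genes.

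**Figure D1:**
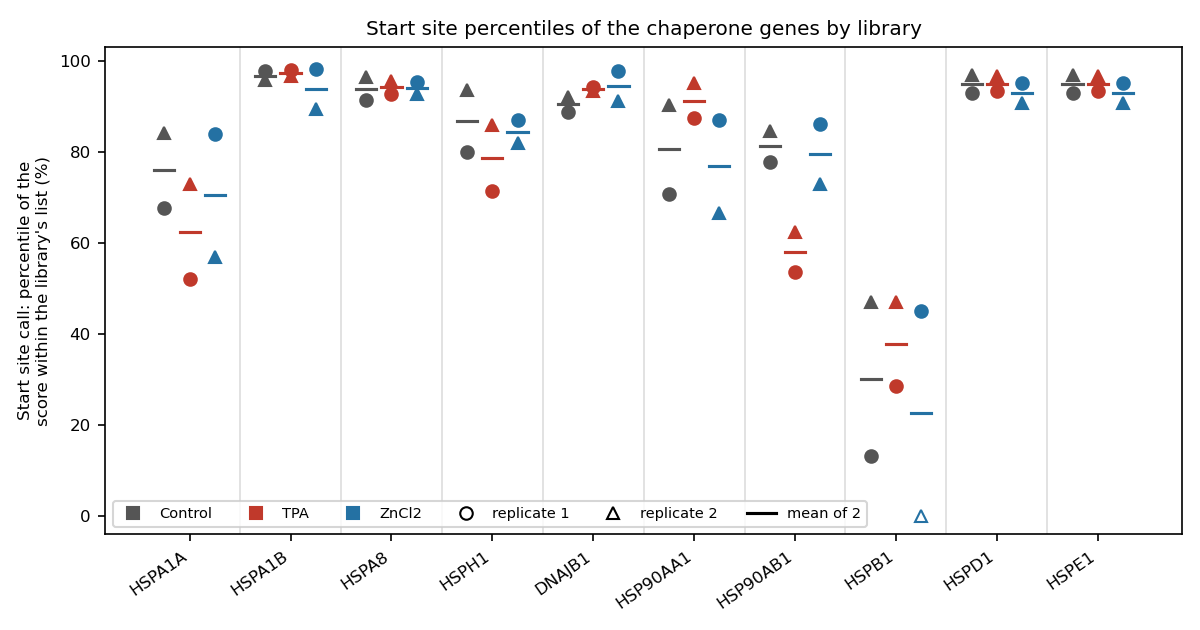
Percentile of the open region over each chaperone start site within its own library's list (vertical axis, %), for 2 libraries per condition (circle for replicate 1, triangle for replicate 2) with the mean as a bar; an open symbol at 0 marks a start site without a region. HSPA1B, HSPA8, DNAJB1, HSPD1 and HSPE1 sit near the top in every library, the TPA libraries of HSP90AB1 lie at 53.7 and 62.4 below all others of that gene, and HSPB1 ranks lowest.

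The members differed in rank. HSPA1B had the highest mean over the 6 libraries, 95.9 ± 3.27 (SD, n = 6), followed by HSPD1 with HSPE1 (94.3 ± 2.35), HSPA8 (94.0 ± 2.00) and DNAJB1 (92.9 ± 3.06). These neighbours differed by less than their spread. HSPH1 (83.2 ± 7.52), HSP90AA1 (82.8 ± 11.4), HSP90AB1 (72.9 ± 12.8) and HSPA1A (69.6 ± 13.4) came next. Within this group each differed from the next by less than the SD of either. HSPB1 was lowest at 30.1 ± 20.0, with the library without a call entered as 0. The 6 libraries come from 3 conditions, so this spread holds the effect of treatment as well.

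HSPA1A and HSPA1B encode the stress-inducible HSP70 and lie 12195 bp apart on chromosome 6, with start sites at positions 31815543 and 31827738 of hg38. The region of HSPA1A ranked at 67.7 and 84.1 in control, 52.0 and 72.9 in TPA, and 83.8 and 57.0 in ZnCl2 libraries. The 3 groups overlapped. For HSPA1B the percentiles were 97.7 and 95.8 in control, 97.9 and 96.6 in TPA, and 98.1 and 89.5 in ZnCl2 libraries, again with overlap. The copy HSPA1B ranked above HSPA1A in 6 of 6 libraries, by 11.7 to 45.9 points. The region of HSPA1A also covered the start of HSPA1L, a testis-enriched HSP70 gene that begins 260 bp away on the opposite strand, whereas that of HSPA1B covered no other coding start.

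The upstream sequences of the copies are 93.6% identical over 250 bp but 60.9% over 1000 bp, and the genes themselves are 98.6% identical over the aligned stretch downstream of the start. Within 1000 bp downstream of the start, 79.2% of the 75-base words of HSPA1A and 79.3% of those of HSPA1B, 75 bases being the read length, occur elsewhere in the assembled chromosomes, from 208 and 207 bp onwards. Upstream the share was 0 for both genes. The regions over both start sites ended early, 337 to 697 bp downstream for HSPA1A and 412 to 652 bp for HSPA1B, against library medians of 873.5 to 1478 bp over all coding genes with a call. Reads that match more than 1 place may have been placed on either copy or dropped, and the part of this in the width, rank and order of the copies was not tested. At the other members at most 3.2% of the words on either side were repeated.

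HSPA8, the constitutive HSP70, starts at position 123062136 of chromosome 11. Its region ranked at 91.3 and 96.3 in control, 92.8 and 95.5 in TPA, and 95.4 and 92.8 in ZnCl2 libraries. All values lay within 5.03 points and the groups overlapped. The region was 3950 and 11390 bp in control, 3920 and 4210 bp in TPA, and 2490 and 10880 bp in ZnCl2 libraries. In control replicate 2 and ZnCl2 replicate 2 a single region ran through the whole gene to at least 9045 bp downstream, whereas in ZnCl2 replicate 1 a second region began 4406 bp downstream and ranked at 21.2. The long form was thus seen in 1 control and 1 ZnCl2 library and in neither TPA library. Among all coding start sites with a region, the share with a region over 10 kb was not lowest in TPA. It was 0.119% and 1.38% in control, 1.04% and 5.80% in TPA, and 0.352% and 0.636% in ZnCl2 libraries.

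HSPH1, the HSP110 exchange factor on chromosome 13 (start at 31161904), ranked at 79.9 and 93.6 in control, 71.3 and 85.9 in TPA, and 86.9 and 81.9 in ZnCl2 libraries. The TPA mean minus the control mean was -8.14 points, but the groups overlapped. With an equal number of regions per library, taking the 18887 with the highest scores from each list, the values were 73.4 and 84.8, 45.4 and 69.1, and 73.6 and 81.9, and both TPA libraries then lay below all others. HSPA1A behaved in the same way under that ranking, with 57.2 and 62.5 in control, 8.71 and 40.7 in TPA, and 67.4 and 57.0 in ZnCl2 libraries. At both genes the separation was thus tied to that ranking, and it was not present when percentiles were taken among start site regions only.

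DNAJB1, the HSP40 partner that hands clients to HSP70, starts at position 14518397 of chromosome 19. Its region ranked at 88.8 and 92.0 in control, 94.3 and 93.3 in TPA, and 97.7 and 91.1 in ZnCl2 libraries. Both TPA libraries lay above both control libraries, by 3.45 points in the means (93.8 ± 0.683 against 90.4 ± 2.28, SD, n = 2 each), and by 1.84 points without control replicate 1. The ZnCl2 mean was 4.03 points above control with overlap. Ranked against an equal number of regions, both ZnCl2 libraries (95.4 and 91.1) also exceeded both control libraries (85.1 and 81.1), as they did among start site regions (95.0 and 85.5 against 79.1 and 77.6). With 2 libraries against 2, the two-sided exact permutation test of TPA against control gives p = 0.333, the smallest it can give. At the start of the gene record, a different promoter, the TPA mean was below control, the difference being -18.0 points, with overlap.

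The DNAJB1 window held the most regions of the set. Its gene record begins 41994 bp upstream of the canonical start, at a distant isoform, and a region 10 to 12 kb upstream lay over the start of TECR, an enzyme of fatty acid elongation. In TPA replicate 2 that region was 19930 bp long and ranked at 98.1. A region 27 kb upstream, 980 bp long and at percentile 26.3, was called in TPA replicate 1, and the 19930 bp region of TPA replicate 2 covers the same place. The other 4 libraries had no call there, so the TPA mean of that place exceeded both other groups by 62.2 points, a value set largely by the score of the long region.

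**Figure D2:**
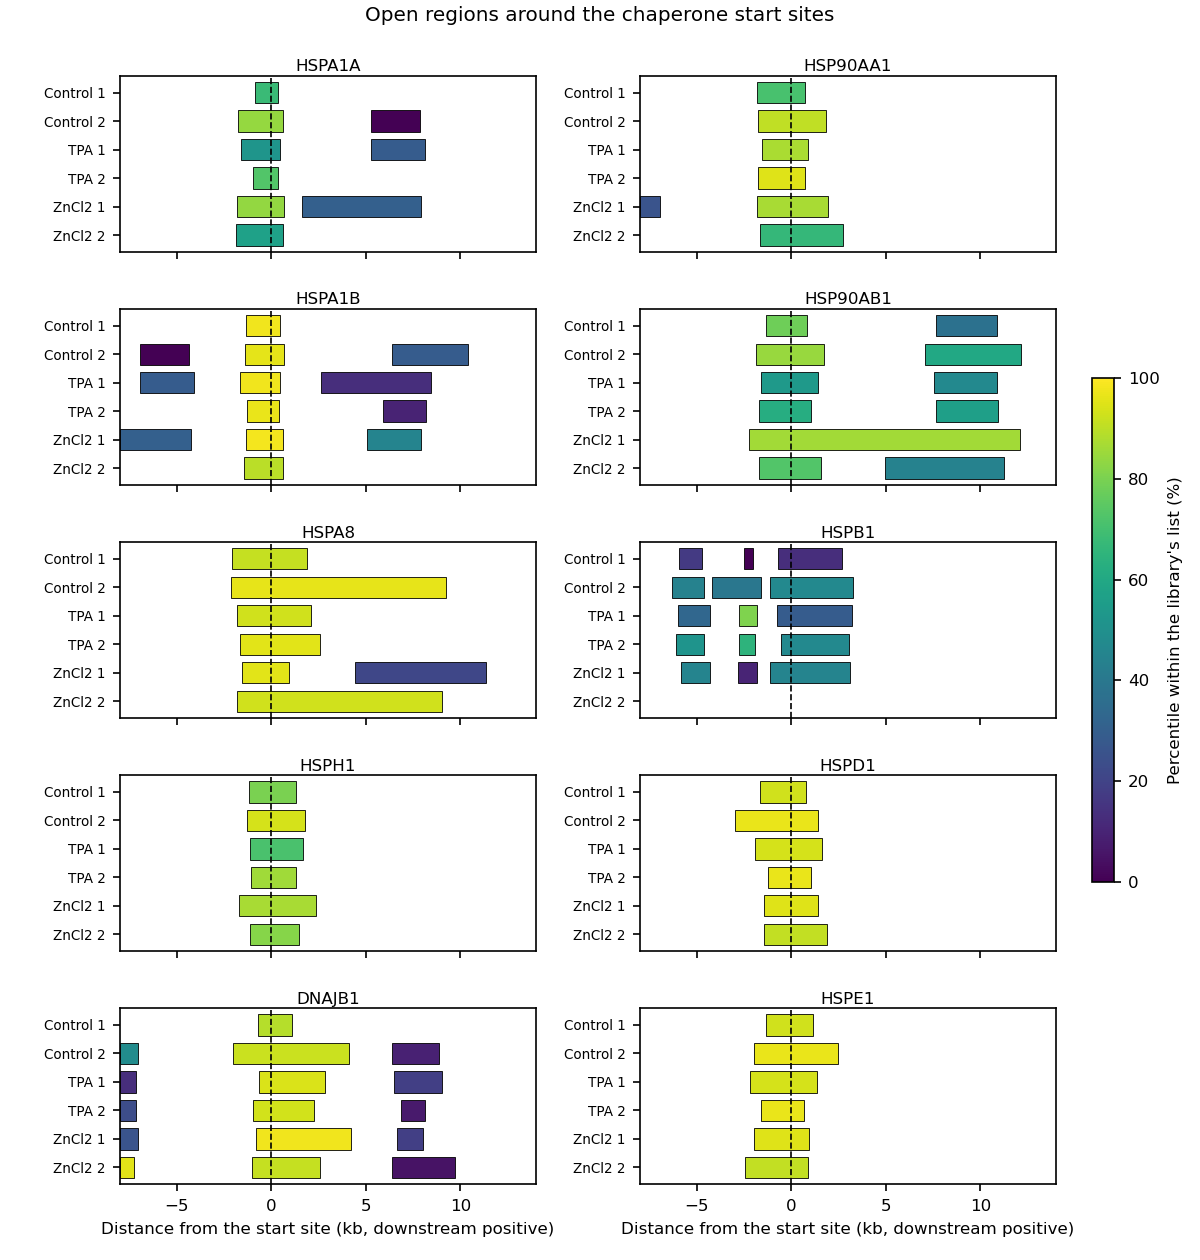
Open regions within the chaperone windows, drawn by distance from the start site (horizontal axis, kb, dashed line at 0) for the 6 libraries in rows and coloured by percentile within the library's list; regions are cut at 8 kb upstream and 14 kb downstream. HSPA1A and HSPA1B regions end within 0.7 kb downstream, HSPA8 and HSP90AB1 each have libraries with a region over 10 kb long, and the window of HSPB1 is empty in ZnCl2 replicate 2.

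HSP90AB1, the constitutive HSP90 on chromosome 6 (start at 44247101), gave the largest difference between conditions among the start sites. Its region ranked at 77.8 and 84.5 in control, 53.7 and 62.4 in TPA, and 86.1 and 72.9 in ZnCl2 libraries. Both TPA libraries lay below all 4 others. The TPA mean of 58.0 ± 6.18 (SD, n = 2) stood against a control mean of 81.2 ± 4.77, a difference of -23.1 points, and a ZnCl2 mean of 79.5 ± 9.33, a difference of -21.5 points. The two-sided exact permutation test gave p = 0.333 for each, its smallest possible value, and 1 after Benjamini-Hochberg adjustment over the 10 genes and 3 contrasts. Of all 12640 coding start sites with a call, 9.38% had a lower TPA minus control difference.

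In width, TPA was not apart from control at HSP90AB1. The region was 2200 and 3640 bp in control, 3030 and 2760 bp in TPA, and 14360 and 3240 bp in ZnCl2 libraries. In ZnCl2 replicate 1 the region ran on to 12109 bp downstream and also covered the start of SLC35B2, a sulfate donor transporter of the Golgi, so its score is that of the joined region. Both TPA values lay below each ZnCl2 library, so leaving that library out cannot change the order. The part of the joined region in the difference was not tested. In the other 5 libraries SLC35B2 had its own region at percentiles 37.1 and 60.1 (control), 46.9 and 56.0 (TPA) and 43.9 (ZnCl2 replicate 2), and TPA was not apart from control there. The heat shock units of intron 1, sought only within the merged start site region, were inside that region in all 6 libraries.

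HSP90AA1, the stress-inducible HSP90 on chromosome 14 (start at 102087044), ranked at 70.7 and 90.3 in control, 87.4 and 95.0 in TPA, and 86.9 and 66.6 in ZnCl2 libraries. Both TPA libraries were above both ZnCl2 libraries, by 14.4 points in the means, and overlapped control, the TPA mean being 10.7 points higher. The difference from ZnCl2 was 4.31 points without ZnCl2 replicate 2 and 24.6 points without ZnCl2 replicate 1. Among start site regions only, TPA (75.9 and 88.5) was also apart from control (52.0 and 73.1). The width followed the opposite order, with 2430 and 2470 bp in TPA, 2560 and 3600 bp in control, and 3750 and 4390 bp in ZnCl2 libraries. Each of these 3 groups was apart from the next, with an exact permutation p = 0.333 for each of the 3 contrasts in width. Of all coding start sites with a region in the 4 libraries compared, 16.6% were likewise narrower in TPA than in control, 10.9% wider in ZnCl2 than in control and 55.2% narrower in TPA than in ZnCl2. The median width over all regions of a list also ran from 1160 and 1070 bp in TPA through 1220 and 1760 bp in control to 1450 and 2070 bp in ZnCl2 libraries, and its part in the width of HSP90AA1 was not tested.

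Set against each other within a library, the HSP90 genes were near each other without TPA and far apart with it. HSP90AA1 minus HSP90AB1 was -7.05 and 5.75 points in control, 0.764 and -6.30 points in ZnCl2, and 33.7 and 32.6 points in TPA libraries. The TPA difference exceeded that of control by 33.8 points and that of ZnCl2 by 35.9 points, with no overlap (exact permutation p = 0.333 for each, the smallest possible). The difference within TPA was 64.1 and 71.4 points with an equal number of regions and 43.9 and 52.3 points among start site regions. This pair was chosen after its values were seen, so the contrast is a description of these 6 libraries. The window of HSP90AA1 also held a region over the start of WDR20, some 52 kb upstream at the far isoform of the gene record, which ranked at 70.7 and 89.5 in control, 74.2 and 78.2 in TPA, and 72.4 and 57.0 in ZnCl2 libraries. There too both TPA libraries lay above both ZnCl2 libraries, by 11.5 points in the means, and overlapped control.

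**Figure D3:**
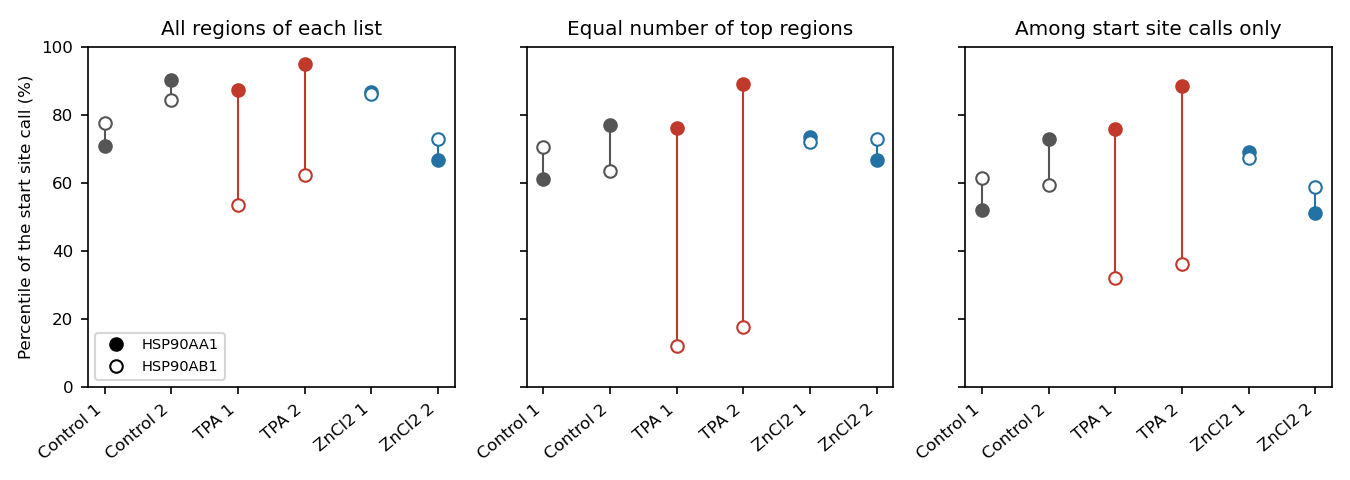
Percentile of the start site region of HSP90AA1 (filled) and HSP90AB1 (open) in each library (vertical axis, %), within all regions of the list, within an equal number of highest-scoring regions, and among start site regions only; the line joins the genes of a library. The line is longest in both TPA libraries under all 3 rankings.

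HSPB1, the small heat shock protein HSP27 on chromosome 7 (start at 76302673), had the weakest start site of the 10. It ranked at 13.1 and 47.0 in control, 28.5 and 47.0 in TPA, and 45.1 in ZnCl2 replicate 1, with no call in ZnCl2 replicate 2. The groups overlapped. None of these regions was among the 18887 highest of its library, so HSPB1 dropped out when lists were cut to equal length. The region was broad all the same, 3410 to 4410 bp, and reached 2697 to 3287 bp downstream across the gene of 1623 bp.

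Upstream of HSPB1 stood an open element that differed more between conditions than any member start site. It lay about 2 kb before the start, the part common to its calls being the 470 bp at chr7:76300191-76300660, and it overlapped no coding gene. Its calls ranked at 0 and 39.5 in control, 80.8 and 64.8 in TPA, and 9.89 in ZnCl2 replicate 1, with none in ZnCl2 replicate 2. Both TPA libraries lay above all 4 others. The TPA mean was 53.0 points above control and 67.8 points above ZnCl2, with no call entered as 0 (exact permutation p = 0.333 for each, the smallest possible). Without control replicate 1 the difference from control was 33.3 points. With an equal number of regions it was called in TPA alone, at 63.5 and 22.8.

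The middle 250 bases of this common part are printed because the element had the largest difference between TPA and ZnCl2 of all elements in the windows. They contain no heat shock element pair and no metal response core, which are found in 13.7% and 16.2% of windows of the same length over the 39912 elements without a coding start. The calls of this element were 470 and 2560 bp in control, 990 and 840 bp in TPA, and 970 bp in ZnCl2 replicate 1. The part of these widths in the ranks was not tested. The common 470 bp hold 0 metal response cores. Merged over libraries, the element has the extent of the control replicate 2 call, 2560 bp, and holds 5 metal response cores and 0 heat shock element pairs. No background share was taken at that length.
HSPB1 upstream element (chr7:76300301-76300550, plus strand): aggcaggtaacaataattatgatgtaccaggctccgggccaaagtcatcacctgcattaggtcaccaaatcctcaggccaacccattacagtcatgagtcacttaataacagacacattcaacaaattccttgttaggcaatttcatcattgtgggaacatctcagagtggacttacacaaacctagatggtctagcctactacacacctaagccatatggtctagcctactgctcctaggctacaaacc

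Such separations were frequent in the whole data set. Over the 39912 open elements without a coding start site, 20.2% had both TPA libraries above both control libraries and 36.8% had both above both ZnCl2 libraries. The element was singled out after its values were seen. A second element 4.3 to 6.3 kb upstream of HSPB1 ranked at 16.8 and 44.2 in control, 33.1 and 51.8 in TPA, and 45.1 in ZnCl2 replicate 1, and its groups overlapped. The start site region on its other side, given above, overlapped between groups as well.

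**Figure D4:**
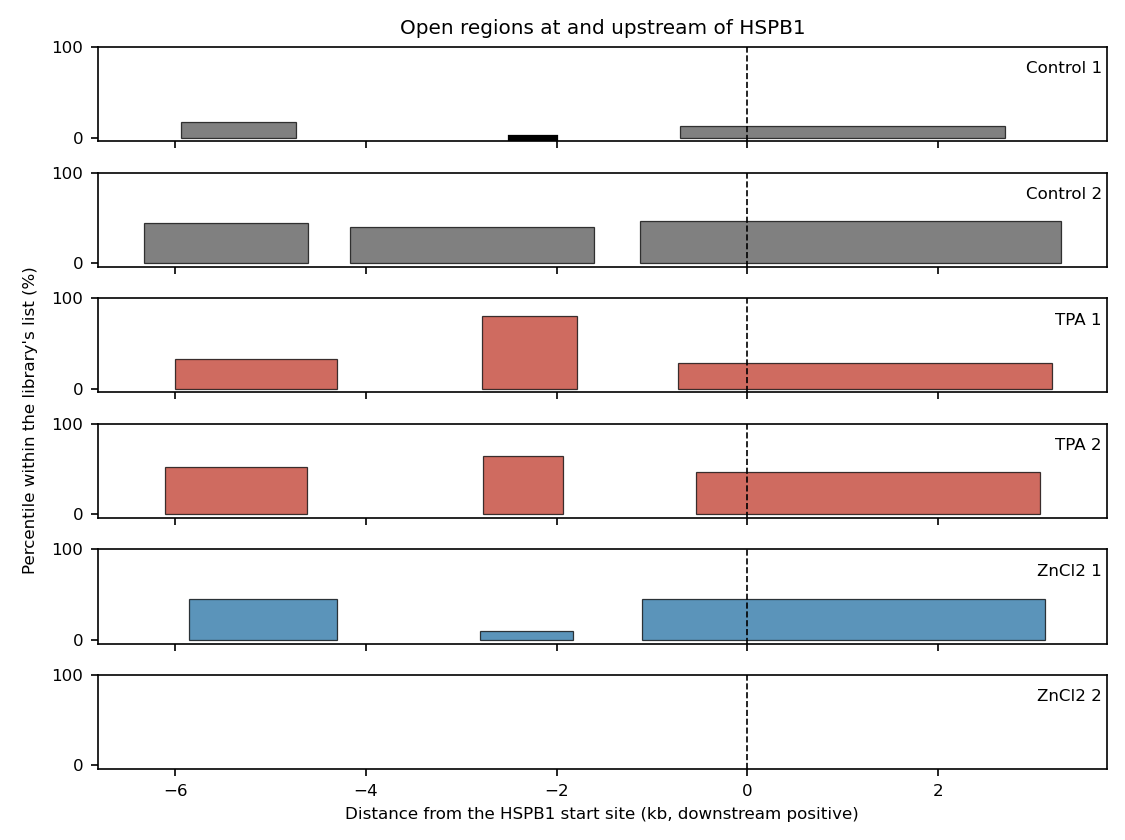
Open regions at HSPB1 by distance from its start site (horizontal axis, kb) with their percentile within the library's list as bar height (vertical axis, %), 1 panel per library; a thick black line marks a region at percentile 0. The region about 2 kb upstream reaches 80.8 and 64.8 in the TPA libraries and at most 39.5 elsewhere.

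HSPD1 and HSPE1, the mitochondrial chaperonin and its lid, start 539 bp apart on opposite strands of chromosome 2 (197499840 and 197500379). A single region covered both starts in all 6 libraries, together with that of the readthrough gene HSPE1-MOB4, so their values are the same measurement. It ranked at 93.0 and 96.9 in control, 93.4 and 96.6 in TPA, and 95.1 and 90.8 in ZnCl2 libraries. The groups overlapped, and the TPA mean differed from control by 0.0536 points. Percentiles so near the top leave little room for a difference.

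Counted over the 10 genes, the shares of members apart between groups lay near or under those of all coding start sites. TPA was above control without overlap at 1 member (DNAJB1) and below it at 1 (HSP90AB1), where 10.5% and 18.9% of 12640 start sites did so. ZnCl2 was apart from control at 0 members in either direction, against 2.00% higher and 10.8% lower of all start sites. TPA was above ZnCl2 at 1 member (HSP90AA1) and below it at 1 (HSP90AB1), against 21.4% and 14.1%. TPA and ZnCl2 were compared with the same control libraries, so these contrasts are not independent.

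The counts moved with the ranking. With an equal number of regions, TPA was above control at 1 member and below at 3, against 11.5% and 33.5% of 10889 start sites, and ZnCl2 was above control at 2 members and below at 0, against 21.1% and 16.2%. TPA was then above ZnCl2 at 1 member and below at 5, against 15.3% and 39.2%. HSPB1 had no region in the cut lists, so the counts under this ranking are out of 9 members. In every count HSPD1 and HSPE1 enter as 2 members with 1 shared region. Among start site regions, TPA was above control at 2 members and below at 1 (21.3% and 20.1% of all), ZnCl2 was above control at 1 and below at 0 (9.78% and 16.4%), and TPA was above ZnCl2 at 1 and below at 1 (28.9% and 19.0%). HSP90AB1 was lower after TPA than in control and ZnCl2 under all 3 rankings. The median difference over the members was 0.198 points for TPA minus control, -2.16 for ZnCl2 minus control and 1.05 for TPA minus ZnCl2, where all start sites gave -0.378, -3.12 and 1.68. No exact permutation test of 2 libraries against 2 can fall under 0.05, and the replicates are called biological in the methods of the study and technical in its results, so their spread may be technical.

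**Figure D5:**
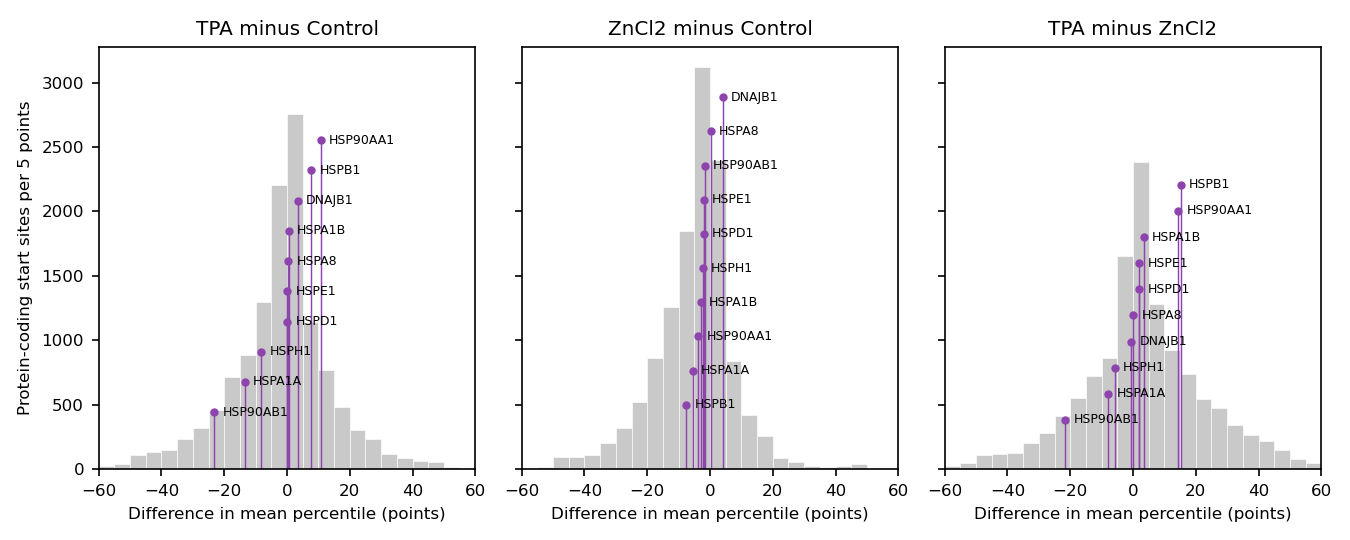
Difference in mean percentile between conditions (horizontal axis, points, drawn from -60 to 60) for all 12640 protein-coding start sites with a region in at least 1 library (grey bars, number per 5 points) and for the 10 chaperone genes (purple). Most members lie in the central bars, with HSP90AB1 at -23.1 and -21.5 in the contrasts of TPA with control and with ZnCl2.

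Of the wider chaperone genes, covering other J-domain proteins, HSP70 and HSP90 cofactors, small heat shock proteins and subunits of the cytosolic chaperonin, 69 of 71 listed names matched the annotation. The start site was open in all 6 libraries at 52 and in none at 7. After TPA 5 were above control and 9 below without overlap, and after ZnCl2 2 were above and 11 below. TPA was above ZnCl2 at 18 and below at 4. The background shares are those given for the members. DNAJC2, a ribosome-bound J-domain protein, ranked at 24.2 and 72.7 in control, 73.3 and 80.4 in TPA, and 73.7 and 9.41 in ZnCl2 libraries. TOMM34, a cytosolic cofactor of HSP70 and HSP90 in mitochondrial import, ranked at 69.2 and 72.7 in control, 46.9 and 40.1 in TPA, and 79.6 and no call in ZnCl2 libraries. PTGES3, the HSP90 cochaperone p23, ranked at 72.0 and 85.4 in control and at 67.5 and 35.2 in ZnCl2 libraries. Both ZnCl2 libraries lay under both control libraries there, and TPA at 60.7 and 80.4 overlapped control. The median difference over the list was 0.483 points for TPA and -4.53 points for ZnCl2 against control, beside the -0.378 and -3.12 of all start sites.

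Beside the chaperones, the 79 cytosolic ribosomal protein genes were open in all 6 libraries at 52, and the 33 immediate early genes at 28. After TPA 13 ribosomal genes were above control and 6 below without overlap, against 10.5% and 18.9% of all start sites. Among them were RPL4 (50.2 points) and RPS27 (42.8 points), and in the other direction, outside the naming rule and chosen after their values were seen, RPS27A (-23.6 points) and RPL27 (-20.7 points). After ZnCl2 1 was above and 13 below, against 2.00% and 10.8% of all start sites, among them RPL35A (-62.8), RPS12 (-40.9), RPS14 (-29.4), RPLP0 (-29.1) and RPS26 (-22.4). ZnCl2 replicate 2, the shortest list, covered 54 of these starts where the other libraries covered 66 to 79, and the part of this in those counts was not tested. Of the immediate early genes 7 were above and 4 below control after TPA, among them GADD45B (34.6 points) and IER3 (-25.4 points), and 0 above and 6 below after ZnCl2. Their background shares are the same 10.5% and 18.9% for TPA and 2.00% and 10.8% for ZnCl2, with 32 of the 33 genes called in at least 1 library. These lists, like the members, were drawn up with earlier results of these data known.

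For each member the coding gene elsewhere with the most similar percentiles over the 6 libraries was sought by the mean absolute difference. These were SAP30L for HSPA1B (0.617 points), VAMP1 for HSPA8 (0.484), DLG2 for HSPD1 and HSPE1 (0.406) and TMEM143 for DNAJB1 (0.911). Larger distances separated HSPH1 from GPBP1 (1.70), HSP90AA1 from TMEM106B (1.91), HSPA1A from ZNF843 (1.97), HSPB1 from MRPL53 (2.1) and HSP90AB1 from C12orf29 (2.19). C12orf29 ranked at 50.4 and 62.4 in TPA and at 76.6 and 83.7 in control libraries. The members were left out of the candidates, so this search cannot show whether they resemble each other. Of the chaperones only the wider list could appear, and none of its genes was among these nearest genes. That list holds 69 of the 20033 coding genes, so its absence says little.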

How the data were processed

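ATAC-seq was performed on MCF10A cells by the authors, with paired 75-base reads from 2 sequencing runs combined. The authors trimmed reads with BBDuk, checked them with FastQC 0.11.8, aligned them to hg38 with HISAT2 2.1.0, processed them with SAMtools 1.8 and called open regions per library with HMMRATAC (version not given in the sources used here). The deposited lists hold, per region, a whole-number score of at least 30, whose kind is not stated. Replicates were not pooled.

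Members were matched by symbol to GENCODE release 44, with windows of the gene body ± 5 kb. The start site was that of the Ensembl canonical transcript. Scores became percentiles within a list (share of regions with a lower score), and a start without a region was entered as 0. Regions overlapping between libraries were merged into elements, those over 5 kb being left out when elements were built. Groups were compared by non-overlap and by exact two-sided permutation tests over libraries, with Benjamini-Hochberg adjustment over 10 genes and 3 contrasts. Genes named from the lists were up to 6 per contrast with the largest differences among those not overlapping control, both with all regions and with an equal number of regions. The nearest gene was sought over 100 kb away and outside the 10 members. The members, lists and tests were chosen with earlier results of these data known. Alternatives were an equal number of regions, percentiles among start site regions, other windows, the gene record start, a replicate block and each library left out. Steps were tested on simulated data. Python 3.11.15, numpy 2.4.6, pandas 2.3.3, scipy 1.17.1, matplotlib 3.10.9, pysam 0.24.0 and Biopython 1.88 were used.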

Additional observations from a re-analysis of the deposited data

How the results depend on the processing

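The number of members whose percentiles did not overlap depended on the ranking and on single libraries. For TPA against control it was 2 in the full lists, 4 with an equal number of regions and 1 at the gene record start, where DNAJB1 turned from 3.45 to -18.0 points. Leaving out 1 library gave 3 to 9, with 9 without control replicate 1 (75.8% of all start sites met the same rule), 7 without control replicate 2 (69.5%), 5 without TPA replicate 2 (48.2%) and 3 without TPA replicate 1 (49.5%). For ZnCl2 against control it was 0 in the full lists, 2 with an equal number of regions and 1 among start site regions, and 3 to 7 with 1 library left out, 7 without control replicate 1 (63.8%) or ZnCl2 replicate 1 (57.4%) and 3 without control replicate 2 (37.4%) or ZnCl2 replicate 2 (46.5%). For TPA against ZnCl2 it was 2, then 6 with an equal number of regions and 4 to 8 with 1 library left out, 8 without ZnCl2 replicate 1 (74.6%), 6 without ZnCl2 replicate 2 (74.6%) or TPA replicate 1 (55.6%) and 4 without TPA replicate 2 (49.9%). With 1 library left, separation needs only that it lies outside the other group's range. The median difference for TPA minus control, 0.198 points, ranged from -2.03 to 2.00 with 1 library left out and was -3.97 at the gene record start, so its sign was not fixed. It ranged from -6.06 to 3.28 points for ZnCl2 minus control and from -2.57 to 4.22 for TPA minus ZnCl2 with 1 library left out, the positive and negative extremes, 3.28 and -2.57, being without ZnCl2 replicate 2. The latter median was -3.51 with an equal number of regions. In TPA replicate 2 the DNAJB1 gene body alone held 26220 open bases, against 9500 in TPA replicate 1. The gene body values that follow leave out TPA replicate 2, so they do not compare conditions. Counting gene bodies alone gave 21.2, 41.2, 28.6, 41.8 and 33.4 open kb in control 1, control 2, TPA 1, ZnCl2 1 and ZnCl2 2, against 33.5, 75, 55.5, 77.0 and 52.0 kb with 5 kb on either side. The cause of these changes was not tested, apart from the smaller windows and the fewer libraries themselves.

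With a replicate block, in which same-numbered libraries were subtracted, 6 members had TPA differences of 1 sign against control, 3 higher and 3 lower, where 20.9% and 28.0% of all start sites did so. Same-numbered deviations correlated at 0.17 for TPA and control, -0.46 for ZnCl2 and control and -0.13 for TPA and ZnCl2 over 8613 start sites. With 2 libraries per group, such a correlation cannot show whether same-numbered libraries were prepared together, so their pairing is unknown. With the numbers crossed, a choice made after seeing the data, 6 members had 1 sign for ZnCl2 against control (49.8% of all start sites) and 8 for TPA against ZnCl2 (53.2%). Groups that do not overlap stay apart by construction when a library is left out or a block is used, so these say nothing of stability for single genes. HSP90AB1 differed by -52.2 and -57.7 points from control and ZnCl2 with an equal number of regions and by -26.4 and -29.0 among start site regions, against -23.1 and -21.5. Of the values for single genes and elements, these included, 370 moved by less than the spread between replicates and 28 by more, and DNAJB1 at the gene record start turned. The 370 include every value with 1 library left out and every replicate block. With 2 libraries per group neither can move by more than that spread, so the tally does not measure stability. Depth is unknown and limits what absent regions show.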
